A study of Arabidopsis thaliana with 12 samples.

Results

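Polygalacturonase, galactose oxidase and pectin methylesterase inhibitor genes were followed across 4 treatments of Arabidopsis thaliana. The 4 genes are AT2G43880, AT3G59850, AT1G19900 and AT4G25250. They were chosen from these same arrays because their signals were lower in plants given L-AOPP and IAA than in plants given L-AOPP alone or L-AOPP with IPyA, which held for group means in differing degree from gene to gene. Comparisons of the L-AOPP+IAA plants with the other groups are therefore given as a description, with no test. Each gene has 1 probe set with no other gene paired to it, and the 4 genes stand among 13286 genes that could be named on the array. The choice had no numerical threshold.

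Whole Col-0 plants were grown for 7 days at 21 °C in shaken liquid MS medium of reduced strength under constant light, and 3 arrays were made for each of 4 groups. Mock plants received DMSO. L-AOPP plants received 50 µM L-AOPP, an aminooxy analogue of phenylalanine used here as an inhibitor of auxin biosynthesis, for 3 h. L-AOPP+IAA plants also received 1 µM IAA, the main natural auxin, and L-AOPP+IPyA plants received indole-3-pyruvic acid, the precursor of IAA, each added 1 h after L-AOPP, so that all groups but mock share the inhibitor. The sample descriptions give the IPyA dose as 100 µM and the treatment protocol gives 0.1 µM, so it is not settled. The labels do not state whether the 3 arrays of a treatment are independent cultures. The p-values therefore cover the scatter among these arrays, which could be purely technical.

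Pectin is the galacturonic acid-rich polysaccharide of the plant primary wall and of the layer that holds cells together. Its backbone is secreted in a methylesterified form, and pectin methylesterases remove the methyl groups, which changes how stiff the wall is and where other enzymes can cut. Polygalacturonases cleave the de-esterified backbone, and pectin methylesterase inhibitors are small secreted proteins that bind and block the methylesterases. Galactose oxidases of the glyoxal oxidase-related family are secreted copper enzymes that oxidise sugars of the wall. By family, AT2G43880 and AT3G59850 are polygalacturonase (pectin lyase-like) genes, AT1G19900 is a gene of the glyoxal oxidase-related family and AT4G25250 is a gene of the invertase and pectin methylesterase inhibitor family. The gene table used here gives only locus identifiers for all 4, so the family is general knowledge of the Arabidopsis annotation.

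Median signals of the 12 arrays lay between 169.2 and 185, and the values are MAS5 signals on a common scale. Arrays with the same replicate number resembled each other, with correlations of their deviations from group means of 0.501 to 0.685. The number was therefore treated as a pair in differences by pair and in a second, paired fit. Log2 differences of the 4 genes given with ± SE come from the unpaired fit. With pairing the SE was 0.21 for AT2G43880, 0.23 for AT3G59850, 0.31 for AT1G19900 and 0.29 for AT4G25250. Replicate 1 stood apart on root hair genes. The summed signal of the 5 measured genes of a 23-gene root hair list (EXPA7, EXPA18, GH9C1, AT2G47540 and AT3G49960) lay between 10529 and 13991 on the 4 replicate 1 arrays and between 2621 and 6118 on the other 8. None of the 5 was at 0 in any group. The 3 measured genes of a 25-gene list of shoot photosynthesis summed to between 47468 and 63716 on all arrays. The 3'/5' ratio of the GAPDH control averaged 1.36, 1.38 and 1.17 in replicates 1, 2 and 3. That of the actin control was much higher and uneven, from 7.77 (L-AOPP replicate 1) to 14.5 (L-AOPP+IAA replicate 2). Its bearing on the 4 genes was not tested.

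**Figure D1:**
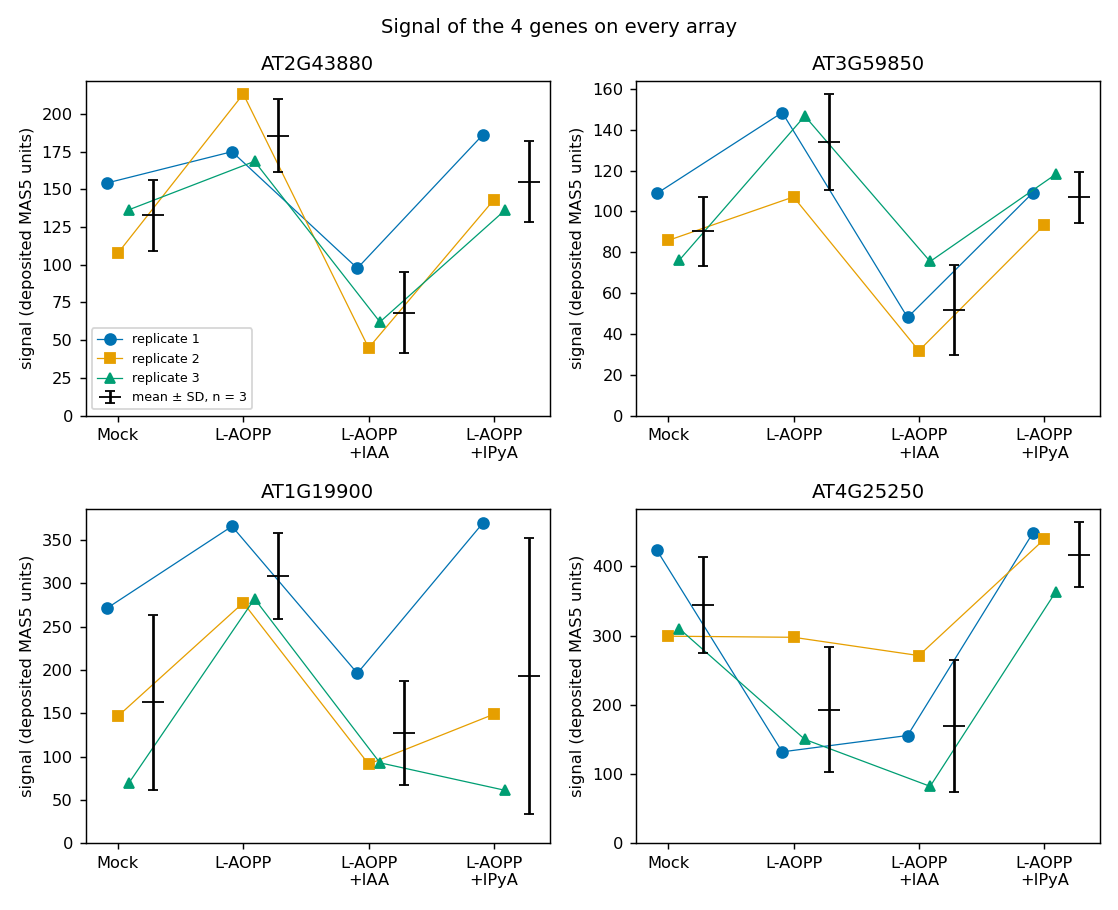
Signal (deposited MAS5 units, linear axis from 0) of each of the 4 genes on all 12 arrays, by treatment, with lines joining arrays of 1 replicate number and black bars for the mean ± SD of 3 arrays. AT2G43880 and AT3G59850 are lowest on all 3 arrays with L-AOPP+IAA, AT1G19900 is ordered by replicate number as much as by treatment, and AT4G25250 is low with L-AOPP and with L-AOPP+IAA and high in mock and with L-AOPP+IPyA, apart from replicate 2.

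The polygalacturonase gene AT2G43880 had its lowest signal with L-AOPP+IAA in every replicate, and its highest group mean with L-AOPP alone. Its signal was 154.1, 107.7 and 136.5 in mock replicates 1, 2 and 3. With L-AOPP it was 174.9, 213.1 and 168.5, all above the mock arrays. With L-AOPP+IAA it was 97.7, 44.9 and 62.1, below every other array, and with L-AOPP+IPyA it was 186.0, 143.1 and 136.3, overlapping both mock and L-AOPP. The value of 44.9 lies under the filter level of 47.4 used for dim probe sets, so the size of that fall is loose. Group means ran from L-AOPP (185.5 ± 24.1, SD, n = 3) through L-AOPP+IPyA (155 ± 26.9) and mock (133 ± 23.4) to L-AOPP+IAA (68.2 ± 26.9).

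The descriptive difference of AT2G43880 between L-AOPP+IAA and L-AOPP was -1.51 ± 0.26 (log2, SE of the unpaired fit), which is 2.85-fold. By pair it was -0.84, -2.25 and -1.44. Against mock, which played no part in the choice although the L-AOPP+IAA arrays did, the gene was 2.03-fold lower with L-AOPP+IAA (-1.02 ± 0.26), with pair differences of -0.66, -1.26 and -1.14. All 3 pairs thus lay below mock and not only below L-AOPP. L-AOPP alone differed from mock by 0.49 ± 0.26, with pair differences of 0.18, 0.98 and 0.30. The groups did not overlap, but the change was not called (limma, adjusted p = 1.00, or 0.332 with pairing).

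AT3G59850, the other polygalacturonase gene, followed the same order of group means. Its signal was 108.8, 85.8 and 76.2 in mock replicates 1, 2 and 3, and 148.4, 107.1 and 146.7 with L-AOPP. With L-AOPP+IAA it was 48.1, 31.8 and 75.5, and with L-AOPP+IPyA 109.2, 93.4 and 118.1. All 3 L-AOPP+IAA arrays lay below all other arrays, although the highest of them, replicate 3 at 75.5, was close to mock replicate 3 at 76.2. Replicate 2 with IAA, at 31.8, was again under the filter level.

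Between L-AOPP+IAA and L-AOPP the descriptive difference of AT3G59850 was -1.45 ± 0.29, or 2.72-fold, with pair differences of -1.63, -1.75 and -0.96. Against mock it was -0.87 ± 0.29, with -1.18 and -1.43 in pairs 1 and 2 and -0.01 in pair 3. The position below mock therefore came from 2 of the 3 pairs, whereas that of AT2G43880 came from all 3. L-AOPP differed from mock by 0.57 ± 0.29 and was higher in all 3 pairs (0.45, 0.32 and 0.95), though the groups overlapped and the change was not called (limma, adjusted p = 1.00, or 0.305 with pairing).

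AT1G19900, the galactose oxidase gene, had its highest group mean with L-AOPP and varied more by replicate number than by treatment. Its highest single array was L-AOPP+IPyA replicate 1. Its signal was 271.1, 146.8 and 70.2 in mock replicates 1, 2 and 3. With L-AOPP it was 365.9, 277.7 and 282.2, above all mock arrays, and with L-AOPP+IAA it was 196.3, 91.5 and 93.0. With L-AOPP+IPyA it ran from 369.4 in replicate 1 through 149.1 to 61.2 in replicate 3, which is lower than any array with IAA. Replicate number accounted for 48.5% of its variance over the 12 arrays and treatment for 34.7%, against 8.43% and 80.4% for AT2G43880.

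For AT1G19900 the descriptive difference between L-AOPP+IAA and L-AOPP was -1.37 ± 0.60, lower in all 3 pairs at -0.90, -1.60 and -1.60. With pairing the SE of each difference of this gene was 0.31. Against L-AOPP+IPyA it was -0.34 ± 0.60, with pair differences of -0.91, -0.70 and 0.60. Against mock it was -0.25 ± 0.60, with 0.41 in pair 3. The gene thus met the choice in the comparison with L-AOPP, while its L-AOPP+IAA arrays overlapped those of mock and of L-AOPP+IPyA.

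L-AOPP against mock gave AT1G19900 a difference of 1.12 ± 0.60 (2.17-fold), with pair differences of 0.43, 0.92 and 2.01. It was not called in the fit over all arrays (limma, adjusted p = 1.00, or 0.129 with pairing). Without replicate 1, whose arrays stood apart on root hair genes, the paired fit gave 1.46. It was called there (limma, adjusted p = 0.0409), where 2.07% of all probe sets were called. Without replicate 2 the paired fit gave 1.22 and without replicate 3 it gave 0.68, neither called (limma, adjusted p = 0.456 and 0.346). The call thus rested on leaving out replicate 1. The paired fit without replicate 1 called 0.471% of probe sets for L-AOPP+IPyA against L-AOPP, not including AT1G19900 (-1.55, limma adjusted p = 0.0712). Without mock replicate 3, the lowest mock array, the unpaired difference fell to 0.62, and without mock replicate 1 it was 1.59. L-AOPP+IPyA against L-AOPP gave -1.03 ± 0.60 (adjusted p = 1.00, or 0.272 with pairing), with 0.01, -0.90 and -2.21 by pair. With L-AOPP+IPyA replicate 3 left out that difference was -0.38, and with replicate 1 of that group left out it was -1.68.

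The root hair genes correlated with AT1G19900 over the arrays, but did not move with it in every pair. Their summed signal was 13991, 2621 and 2708 in mock, 11949, 4832 and 6118 with L-AOPP, 11749, 3360 and 3048 with L-AOPP+IAA, and 10529, 2714 and 3472 with L-AOPP+IPyA, in replicates 1, 2 and 3. Replicate 1 was thus high in every group, and in replicates 2 and 3 the sum was highest with L-AOPP. On the log2 scale the sum differed between L-AOPP and mock by -0.23, 0.88 and 1.18 in pairs 1, 2 and 3. AT1G19900 gave 0.43, 0.92 and 2.01, so the signs differed in pair 1. For L-AOPP+IAA against L-AOPP the sum gave -0.02, -0.52 and -1.01, below 0 in every pair like AT1G19900. Against L-AOPP+IPyA the sum gave 0.16, 0.31 and -0.19, and AT1G19900 the opposite sign in each pair (-0.91, -0.70 and 0.60). Over the 12 arrays, which share 3 replicate numbers, the log2 sum had a Pearson r with AT1G19900 of 0.766, or 0.702 after the mean of each replicate number was subtracted. It had an r of 0.392 with AT2G43880, 0.262 with AT3G59850 and -0.08 with AT4G25250. All 5 root hair genes lay above 0 for L-AOPP against mock (0.40 to 0.72), and 0 of them was called in either limma fit. For L-AOPP+IAA against L-AOPP all 5 lay below 0 (-0.69 to -0.42), and AT2G47540 was called lower with pairing (-0.61, adjusted p = 0.0278). For L-AOPP+IPyA against L-AOPP all 5 also lay below 0 (-0.68 to -0.39), with 0 called in either fit. AT4G11290, the 1 measured gene of a 15-gene list of other root genes, went the other way: its signal was 404.0 to 462.7 in mock, 227.9 to 359.6 with L-AOPP, 413.2 to 438.1 with L-AOPP+IAA and 416.8 to 480.9 with L-AOPP+IPyA. Its difference was -0.49 for L-AOPP against mock and 0.48 for L-AOPP+IAA against L-AOPP, not called in either fit (limma, adjusted p = 0.140 and 0.0816 with pairing). The part of these genes in the values of AT1G19900 was not tested, and in whole plants fewer cells of a type and less RNA per cell cannot be told apart.

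**Figure D2:**
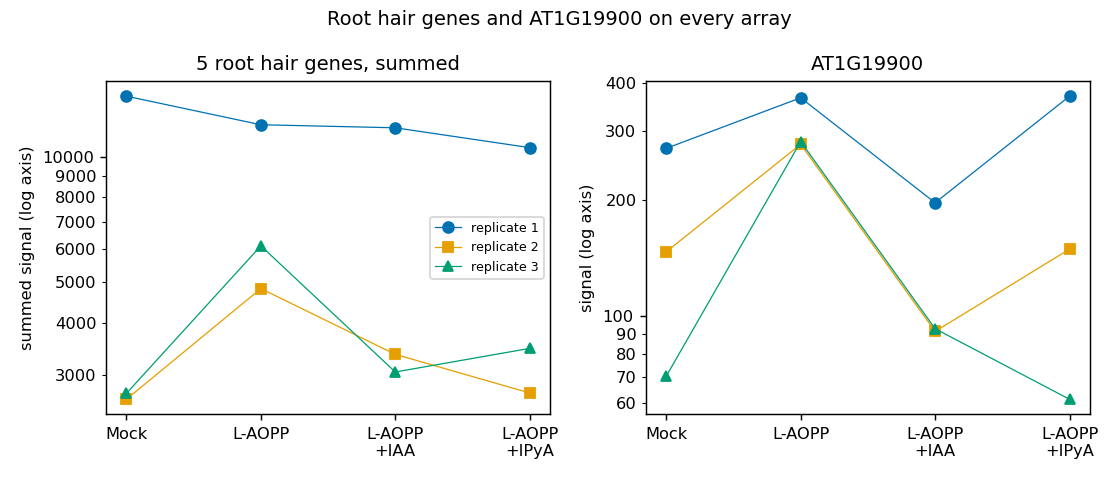
Summed signal of 5 root hair genes (left) and signal of AT1G19900 (right) on all 12 arrays, both on log axes, with lines joining arrays of 1 replicate number. Replicate 1 is highest in every group on both sides, and in replicates 2 and 3 both are highest with L-AOPP.

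AT4G25250, the methylesterase inhibitor gene, had a different pattern: it was low with L-AOPP, stayed low with IAA and was high with IPyA. Its signal was 423.4, 299.2 and 309.9 in mock replicates 1, 2 and 3. With L-AOPP it was 132.2, 297.6 and 150.2, and with L-AOPP+IAA 155.8, 271.2 and 82.4. With L-AOPP+IPyA it was 448.4, 439.1 and 362.7, above all arrays with L-AOPP or L-AOPP+IAA. The L-AOPP+IAA arrays overlapped those with L-AOPP, and their difference of -0.25 ± 0.39 was 0.24, -0.13 and -0.87 by pair. The description of the set as lowered by IAA was thus not borne out for AT4G25250 against L-AOPP alone, where the pairs differed in sign. Its L-AOPP+IAA signals were lower than those with L-AOPP+IPyA (-1.45 ± 0.39, 2.74-fold, lower in 3 of 3 pairs) and, descriptively, in mock (-1.17 ± 0.39). Without IAA, the L-AOPP arrays also lay below both of these groups.

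L-AOPP lay below mock for AT4G25250 by -0.91 ± 0.39 (1.88-fold). Pairs 1 and 3 gave -1.68 and -1.04, whereas pair 2 gave -0.01, so the fall was carried by 2 pairs. It was not called (limma, adjusted p = 1.00, or 0.186 with pairing). L-AOPP+IPyA lay above L-AOPP by 1.20 ± 0.39 (2.29-fold, 95% interval 0.35 to 2.05), with 1.76, 0.56 and 1.27 by pair. This was the 7th largest of 7925 positive differences in that comparison, but it was not called either (limma, adjusted p = 1.00, or 0.174 with pairing). High values with L-AOPP+IPyA favoured the choice of this gene, so the rank is a description and no support. L-AOPP+IPyA differed from mock by 0.29 ± 0.39 (-0.56 to 1.14), with 0.08, 0.55 and 0.23 by pair, and these 2 groups overlapped.

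In the 3 comparisons that the choice of genes did not use, 0 of the 4 genes was called by limma with or without pairing, at an adjusted p under 0.05 over all 15922 probe sets tested. For L-AOPP against mock, 0% of probe sets were called without pairing and 0.578% with it; at an unadjusted p under 0.05 stood 1 of the 4 genes without pairing and 4 with it, where 3.32% and 13.4% of all probe sets did. For L-AOPP+IPyA against L-AOPP, 0% and 0.176% were called, and 1 and 2 of the 4 genes had an unadjusted p under 0.05, where 2.30% and 9.82% of all probe sets did. For L-AOPP+IPyA against mock, 0% were called in both fits and 0 of the 4 genes had an unadjusted p under 0.05, where 0.942% of all probe sets did without pairing and 5.54% with it. These comparisons share the L-AOPP and L-AOPP+IPyA arrays with those that chose the genes, so they are not fully free of the choice. High values on those arrays favoured the choice, so the counts of genes are no independent support. For L-AOPP against mock the genes also differed in direction, with AT4G25250 below 0 and the rest above. Signals of L-AOPP and mock did not overlap for 3 of the 4 genes, AT2G43880 and AT1G19900 higher and AT4G25250 lower, where 7.74% of all probe sets did not overlap. L-AOPP+IPyA and L-AOPP did not overlap for 1 of the 4, AT4G25250 (6.01% of all probe sets), and L-AOPP+IPyA overlapped mock for all 4 (3.98% of all probe sets did not).

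**Figure D3:**
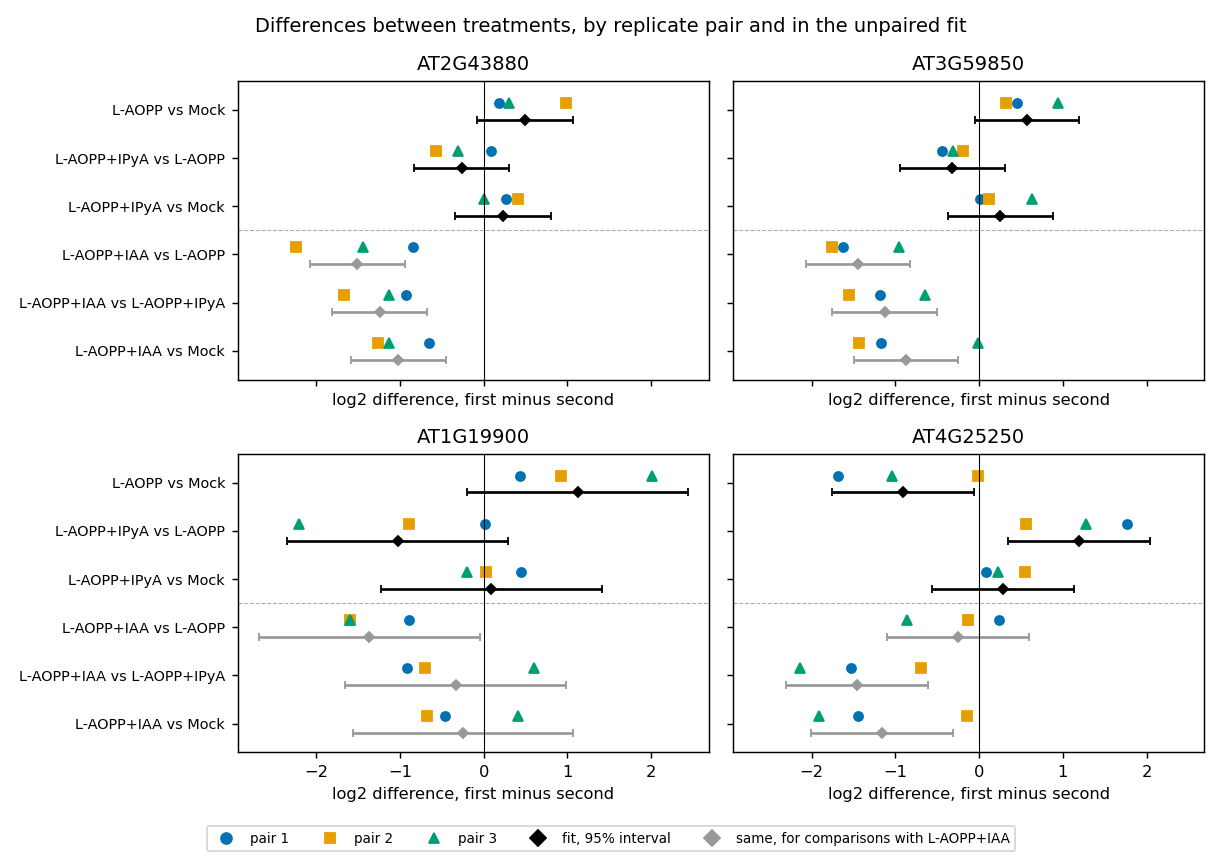
Log2 differences of the 4 genes in 6 comparisons, with coloured points for the 3 replicate pairs and diamonds for the unpaired limma estimate with its 95% interval; grey diamonds mark comparisons that involve the L-AOPP+IAA arrays, by which the genes were chosen. Intervals of AT1G19900 are the widest, and the pairs of AT4G25250 lie above 0 only for L-AOPP+IPyA against L-AOPP or mock and for pair 1 of L-AOPP+IAA against L-AOPP.

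In the comparisons with L-AOPP+IAA, no threshold was applied to the 4 genes, because they were chosen for low values on those arrays. Over all probe sets, limma called 0.396% without pairing and 3.71% with pairing for L-AOPP+IAA against L-AOPP. Against L-AOPP+IPyA the shares were 0.377% and 1.94%, and against mock 0.446% and 1.7%. The L-AOPP+IAA signals did not overlap those of L-AOPP for 3 genes (10.2% of all probe sets), those of L-AOPP+IPyA for 3 (7.22%) and those of mock for 3 (7.51%). The choice favoured such gaps, so these counts are a description. Both polygalacturonase genes were apart from all 3 other groups, AT1G19900 from L-AOPP alone, and AT4G25250 from L-AOPP+IPyA and mock.

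IAA and IPyA were given at different doses, so their values stand side by side only. Relative to L-AOPP alone, AT2G43880 differed by -1.51 with IAA and by -0.26 (95% interval -0.83 to 0.31) with IPyA. AT3G59850 differed by -1.45 with IAA and by -0.32 (-0.94 to 0.31) with IPyA. For AT1G19900 the values were -1.37 and -1.03 (-2.35 to 0.29), and for AT4G25250 they were -0.25 and 1.20. In the paired fit the unadjusted intervals with IPyA were -0.72 to 0.19 for AT2G43880 and -0.82 to 0.18 for AT3G59850. They were -1.70 to -0.36 for AT1G19900 and 0.58 to 1.82 for AT4G25250, though neither was called. AT3G59850 was lower with IPyA than with L-AOPP in 3 of 3 pairs, AT2G43880 in 2 of 3.

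Among the genes, the polygalacturonase pair had the highest Pearson's r, though not a higher Spearman's rho than AT2G43880 and AT1G19900 (0.755 for both pairs). Pearson's r between AT2G43880 and AT3G59850 was 0.831 over the 12 arrays, and 0.858 after the mean of each replicate number was subtracted. AT1G19900 had an r of 0.594 with AT2G43880 and 0.470 with AT3G59850. AT4G25250 had an r of 0.352 with AT2G43880, 0.0590 with AT3G59850 and -0.02 with AT1G19900. The 12 arrays share treatments and the genes were chosen for a common low value, so these correlations are descriptions.

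Other pectin and wall genes lay on both sides of 0 in every comparison. Of 230 further genes in 7 lists, 138 had a named probe set and 77 of their probe sets passed the filter on dim signals. For L-AOPP+IAA against L-AOPP their median difference was -0.02, with 42 of 77 below 0 (54.5%), where 53.6% of all probe sets tested were below 0 and their median was -0.01. Without pairing limma called 0 of the 77, and with pairing it called 4 higher and 2 lower, where 3.71% of all probe sets were called. At an unadjusted p under 0.05 stood 8 without pairing and 17 with it, where 5.90% and 16.05% of all probe sets did. For L-AOPP against mock, 51 of 77 lay above 0 with a median of 0.06, where the median of all probe sets was 0.01. Without pairing limma called 0, and with pairing 1 higher and 1 lower, where 0.578% of all probe sets were called. At an unadjusted p under 0.05 stood 6 without pairing and 12 with it, where 3.32% and 13.4% of all probe sets did. For L-AOPP+IPyA against L-AOPP 0 of 77 were called in either fit, with 3 at an unadjusted p under 0.05 without pairing and 10 with it, where 2.30% and 9.82% of all probe sets were.

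**Figure D4:**
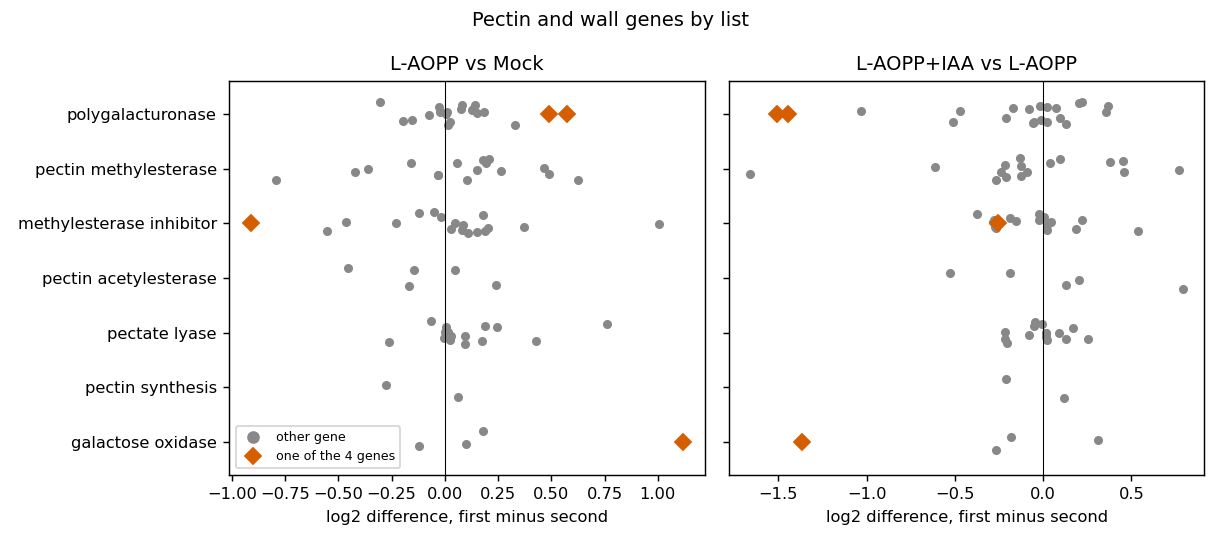
Log2 differences (unpaired limma fit) of the 77 other probe sets of pectin and wall genes (grey) and of the 4 genes (orange), by gene list, for L-AOPP against mock (left) and L-AOPP+IAA against L-AOPP (right, the comparison used in the choice). On the right the other genes centre on 0 with a median of -0.02, and AT4G25250 lies among them at -0.25.

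Among the polygalacturonase genes, AT2G43870 fell with IAA in the paired fit. Its signal was 97.5 ± 36.6 in mock, 132 ± 25.0 with L-AOPP, 70.6 ± 36.7 with L-AOPP+IAA and 116 ± 26.0 with L-AOPP+IPyA. The difference between L-AOPP+IAA and L-AOPP was -1.03 (limma, adjusted p = 0.049978 with pairing, just past the threshold, and 0.601 without). It is the gene next to AT2G43880 in the reference table, and its signal had an r of 0.809 with AT2G43880 over the 12 arrays. AT2G43890, the next gene on the other side, had signals of at most 5.1, and AT2G43860, a further polygalacturonase gene nearby, was dim in mock (11.0) and with L-AOPP (11.2) and reached 83.2 ± 51.1 with L-AOPP+IAA. Neither passed the filter. Whether probe sets of these related neighbours share signal was not tested. AT3G06770, another polygalacturonase gene, rose by 0.37 with IAA in the paired fit (adjusted p = 0.0468).

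AT3G15720 was the polygalacturonase gene called lower with L-AOPP+IAA than in mock in the paired fit (-0.81, adjusted p = 0.0405). Of 19 polygalacturonase probe sets other than the 2 chosen, 9 lay above 0 for L-AOPP+IAA against L-AOPP and 10 below, with a median of -0.01. The low values of AT2G43880 and AT3G59850 thus stood in a family whose 19 other tested probe sets lay on both sides of 0; the rest of the 42 measured polygalacturonase genes were too dim to be tested.

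The 3 of 16 tested pectin methylesterase genes called for L-AOPP+IAA against L-AOPP, all in the paired fit, rose. With pairing, 3.71% of all probe sets were called there. The family did not rise as a whole: of the 16, 6 lay above 0 and 10 below, with a median of -0.13. AT4G02330 (ATPMEPCRB) fell from 832 ± 144 in mock to 476 ± 43.9 with L-AOPP (-0.79, adjusted p = 0.00394 with pairing). With L-AOPP+IAA ATPMEPCRB stood at 813 ± 86.5, a rise of 0.77 from L-AOPP (adjusted p = 0.000617 with pairing). AT3G49220 (0.46, adjusted p = 0.0172) and AT3G10720 (0.46, adjusted p = 0.0132), also methylesterase genes, rose with IAA in the paired fit. None of these was called without pairing. The lowest difference of all 77, -1.66 ± 0.72 for the methylesterase gene AT5G51490, was singled out after its value was seen and was not called (limma, adjusted p = 0.786 without pairing, 0.158 with it). Its L-AOPP+IAA signals ran from 8.2 to 100.8, so 1 dim array weighs heavily in that difference.

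Inhibitor genes other than AT4G25250 were called only as higher in the paired fit. There was 1 such call for L-AOPP against mock, 1 for L-AOPP+IAA against L-AOPP+IPyA and 1 for L-AOPP+IAA against mock. The 1 acetylesterase gene called was lower, for L-AOPP+IAA against L-AOPP. AT5G62340, of the same inhibitor family as AT4G25250, rose with L-AOPP from 1126 ± 293 to 2228 ± 416 (1.00, adjusted p = 0.0232 with pairing), the opposite direction to AT4G25250. AT1G62770, another inhibitor gene, was higher with L-AOPP+IAA than with L-AOPP+IPyA (0.46, adjusted p = 0.0323 with pairing). AT1G57590, a pectin acetylesterase gene, fell with IAA from 574 ± 33.7 to 399 ± 32.2 (-0.53, adjusted p = 0.0479 with pairing). No pectate lyase, pectin synthesis or other galactose oxidase gene was called in either fit of the 6 comparisons. Only 15, 2 and 3 of their probe sets were tested, and the pectin synthesis list has 16 genes. The inhibitor gene next to AT4G25250, AT4G25260, had means of 768 ± 86.7 in mock, 651 ± 21.1 with L-AOPP, 743 ± 51.4 with L-AOPP+IAA and 846 ± 42.2 with L-AOPP+IPyA, and an r of 0.638 with AT4G25250.

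Genes of most similar pattern were sought by Pearson's r of log2 signal over the 12 arrays, among 8674 named probe sets that passed the filter. AT2G43880 was closest to UPB1 (r = 0.944), whose mean signal was 150 in mock, 230.0 with L-AOPP, 103 with L-AOPP+IAA and 197 with L-AOPP+IPyA, followed by AT3G24210 (0.939) and AT3G01720 (0.914). AT3G59850 was closest to UGT72E2 (0.930), AT2G17590 (0.904) and AT1G72200 (0.862). AT1G19900 was closest to AT2G39040 (0.948), SP1L3 (0.909) and AT5G45560 (0.904). AT2G39040 had means of 165 in mock, 275 with L-AOPP, 144 with L-AOPP+IAA and 189 with L-AOPP+IPyA.

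AT4G25250 was closest to AT1G80510 (0.905), AT5G51520 (0.876) and AT4G09580 (0.860). AT5G51520 is itself in the inhibitor list and had means of 112 ± 7.84 in mock, 104 ± 18.7 with L-AOPP, 85.7 ± 18.3 with L-AOPP+IAA and 126 ± 6.89 with L-AOPP+IPyA. With the mean of each replicate number subtracted, the closest genes were UPB1 again for AT2G43880 (0.951), AT2G17590 for AT3G59850 (0.973), AT1G28510 for AT1G19900 (0.958) and AT1G80510 again for AT4G25250 (0.963). The closest gene thus stayed in first place for 2 of the 4. AT1G28510 had an r of 0.0211 with AT1G19900 before that subtraction.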

How the data were processed

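Signals were measured on 12 one-colour arrays of whole plants. The deposited intensities are linear MAS5 signals per probe set, per the submitters' processing notes. The sources used here do not give the version or the settings. The mean of each array, after leaving out 2% of values at each end, is 500.0. Detection calls were not used here, and the number of arrays limits the precision.

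Values under 0.05 were raised to 0.05 and log2 was taken. Of 22810 probe sets, 64 controls and 6824 dim ones, whose mean log2 signal did not exceed the 30th percentile (signal 47.4), were left out, which left 15922. All 4 genes passed. limma 3.58.1 in R 4.3.3 (lmFit, contrasts, eBayes with an intensity trend) was fitted over all 12 arrays, with Benjamini-Hochberg adjustment over all probe sets and a two-sided threshold of 0.05. Both fits were tested on simulated data with independent noise and no replicate effect, which cannot check the pairing. A paired fit added the replicate number as a block: correlations of deviations were 0.501 to 0.685 between arrays of the same number and -0.582 to 0.123 otherwise. The labels do not say what the number stands for.

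Names come from the platform annotation: 1 gene is paired with 13513 probe sets, several with 503, and 8730 probe sets are not listed and so unnamed here. Of the first, 13436 matched a locus in the RefSeq table (TAIR10.1). Genes named were the 4, the 3 most similar in pattern to each, and up to 4 called genes per list; neighbouring genes were added after their values were seen. The members and lists were chosen with earlier results of these data known.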

Additional observations from a re-analysis of the deposited data

How the results depend on the processing

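The differences of the 4 genes in 6 comparisons were recomputed under 8 other settings (pairing, quantile normalisation, median centring, no filter, a filter at the 50th percentile, log2 of the signal plus 16, only the 2 groups compared, no intensity trend) and with arrays left out; 379 of 390 values kept their direction and side of the threshold, or moved by less than the spread. Pairing, both filter settings, the 2 groups alone and no intensity trend cannot change a difference in this balanced design, only its spread and p-value. Much of that agreement was thus fixed in advance. The 4 genes have no p-value in the comparisons with L-AOPP+IAA, so no threshold applies there. The filter at the 50th percentile kept AT4G25250 only. Without replicate 1 and with the replicate block, AT1G19900 was called for L-AOPP against mock (1.46), but not without replicate 2 (1.22) or replicate 3 (0.68). For L-AOPP+IPyA against mock it ran from -0.56 to 0.74 when single arrays were left out and from -0.0878 to 0.23 in the paired fit. AT4G25250 ran from -0.67 to 0.19 for L-AOPP+IAA against L-AOPP (-0.50 to 0.0515 paired). AT1G19900 ran from -0.98 to 0.31 against L-AOPP+IPyA and from -0.75 to 0.23 against mock with L-AOPP+IAA. The cause was not tested.

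With the replicate block, the number of probe sets called was 92 for L-AOPP against mock (0 unpaired; 0 to 329 with a replicate left out), 28 for L-AOPP+IPyA against L-AOPP (0 unpaired; 0 to 75) and 0 for L-AOPP+IPyA against mock in both (150 and 882 at an unadjusted p under 0.05). For L-AOPP+IAA it was 590 against L-AOPP (63 unpaired), 309 against L-AOPP+IPyA (60) and 270 against mock (71). Leaving out arrays gave 23 to 37 unpaired and 119, 193 and 627 paired, 25 to 48 and 118 to 222, and 30 to 69 and 121, 145 and 168. The filter at the 50th percentile gave 35, 33 and 37, and only the 2 groups gave 38 against mock. Pairing changed no call of the 4 genes in the 3 comparisons tested. Signals near the filter level limit AT3G59850 and AT2G43880 with IAA. No closest relative by protein was sought, since no protein table was used.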
